A study of Mus musculus with 22 samples.

Results

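The genes described here are a fibroblast extracellular matrix module: 50 genes for collagens, matrix glycoproteins, proteoglycans and matrix-modifying enzymes, listed for what their proteins do. Symbols were matched to the Ensembl gene identifiers of the expression tables, and 46 of the 50 had a row among the 10516 genes. Fbln1, Postn, Lum and Loxl2 are not analysed here. By role, the 46 were 7 fibrillar collagens, 8 basement membrane genes, 6 other collagens, 4 elastic fibre genes, 7 adhesive or matricellular glycoproteins, 2 small leucine-rich proteoglycans, 7 genes for collagen modification and crosslinking, and 5 matrix proteases and protease inhibitors.

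NIH3T3, an established line of mouse embryo fibroblasts, was transduced with lentiviral vectors that express a short hairpin RNA (shRNA) and selected with puromycin. 6 lysates carried an shRNA against Denr (3 with Denr shRNA1 and 3 with Denr shRNA2, which target different sequences) and 5 were controls (3 with scramble shRNA, which has no intended target, and 2 with Gfp shRNA, against a reporter gene). All cells shared the vector backbone and a brief cycloheximide treatment that holds ribosomes in place before lysis, and the expression is that of transduced, selected populations. From each of the 11 lysates, RPF-seq (ribosome profiling, sequencing of ribosome-protected fragments) and RNA-seq gave read densities (RPKM, reads normalized for length and library size) over the coding sequence (CDS) and the 5′ UTR of each gene. Per the study's methods, each lysate came from a culture dish of its own and the replicates were biological. Whether the dishes came from separate transductions is not given in the sources used here.

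DENR, together with MCTS1, acts on ribosomes that have finished an upstream open reading frame (uORF) in a 5′ UTR and helps them to initiate again on the CDS. Fibroblasts are the main makers of connective tissue matrix: fibrillar collagens form cable-like fibrils, type IV collagen and laminins form basement membrane sheets, and elastin on a fibrillin scaffold gives recoil. Collagen chains are hydroxylated and folded in the endoplasmic reticulum, crosslinked outside the cell by lysyl oxidases, and turned over by metalloproteinases that TIMP proteins inhibit.

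Denr itself was lower in every knockdown lysate. Its RNA was at 44.0, 43.2 and 34.4 with shRNA1, 15.5, 20.8 and 17.4 with shRNA2, 190.1, 185 and 189 with scramble and 165 and 174 with Gfp RPKM, with no overlap. Its CDS footprints were at 43.2, 30.9 and 27.1 with shRNA1, 9.25, 13.2 and 12.8 with shRNA2, 173, 179 and 152 with scramble and 157 and 154 with Gfp RPKM. The knockdown minus control difference was −2.75 (SE 0.25, adjusted p 0.00035) for RNA and −3.05 (SE 0.32, adjusted p 0.000445) for footprints, on the log2 scale and by limma across all genes. Denr was also lower with shRNA2 than with shRNA1, by −1.18 (SE 0.12, adjusted p 0.00197) for RNA and −1.50 (SE 0.16, adjusted p 0.00021) for footprints.

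The libraries held 10927591 to 21650161 RPF-seq and 8514260 to 20110164 RNA-seq reads on CDS and 5′ UTRs, and a matrix gene had between 9 and 56677 RNA-seq and between 4 and 97731 RPF-seq CDS reads in a library. Of 10 fibroblast markers, 9 were present (all but Fap), with Vim (vimentin) at 3834 to 4432 RPKM. Col1a1, Col1a2 and Fn1, which are among the 9, are also members of the module. Of the markers of other cells, 1 of 6 epithelial (Cdh1, 2.74 to 4.05 RPKM), 1 of 5 endothelial (Cdh5, 0.544 to 1.10 RPKM), 0 of 5 leukocyte and 3 of 5 smooth muscle markers had a row, among them Acta2 at 1085 to 2613 RPKM and Tagln at 196 to 437 RPKM. In such bulk lysates, fewer cells that express a gene and less RNA per cell cannot be told apart.

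In the control lysates, matrix genes were mostly abundant and densely covered by ribosomes. Of the 46, 31 lay above the median RNA level of all genes, and 38 lay above the median translation efficiency (TE, the CDS footprint RPKM over the CDS RNA RPKM of the same lysate, on the log2 scale): their median log2 TE was 0.56 against −0.076 over all genes. Together they took 2.01% ± 0.247 (SD, n = 5) of RNA-seq CDS reads but 3.22% ± 0.465 of RPF-seq CDS reads in controls, and 2.12% ± 0.160 and 3.45% ± 0.254 (SD, n = 6) in the knockdown. The 2 kinds of control differed. Mean RNA-seq shares were 1.84% with scramble, 2.26% with Gfp, 2.14% with shRNA1 and 2.09% with shRNA2. Mean RPF-seq shares were 2.90%, 3.70%, 3.57% and 3.34% in the same order, with Gfp highest in both assays. Sparc (osteonectin, which binds collagen) had the highest RNA, and its RNA level per lysate was 2078, 1721 and 1382 with shRNA1, 1753, 1671 and 1698 with shRNA2, 1838, 1669 and 1286 with scramble and 2128 and 1776 with Gfp RPKM. Timp2, an inhibitor of metalloproteinases, was at 1474, 1277 and 1245 with shRNA1, 1150.1, 1169 and 1193 with shRNA2, 1413, 1349.9 and 1231 with scramble and 1723 and 1413 with Gfp RPKM. These 2 levels overlapped between knockdown and control.

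Serpinh1, the collagen chaperone HSP47, had RNA at 1115, 829.6 and 763 with shRNA1, 787, 685 and 744 with shRNA2, 746, 681 and 665 with scramble and 888 and 774 with Gfp RPKM. Col1a2, the α2 chain of type I collagen, had RNA at 769, 697 and 575 with shRNA1, 621, 727 and 694 with shRNA2, 623, 579 and 523 with scramble and 653 and 672 with Gfp RPKM. Both were somewhat higher in single shRNA1 lysates and overlapped between knockdown and control. At the other end, Eln (elastin), Col18a1 and Col12a1 had control means of 0.365, 0.608 and 0.640 RPKM, the lowest RNA levels of the 46.

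**Figure D1:**
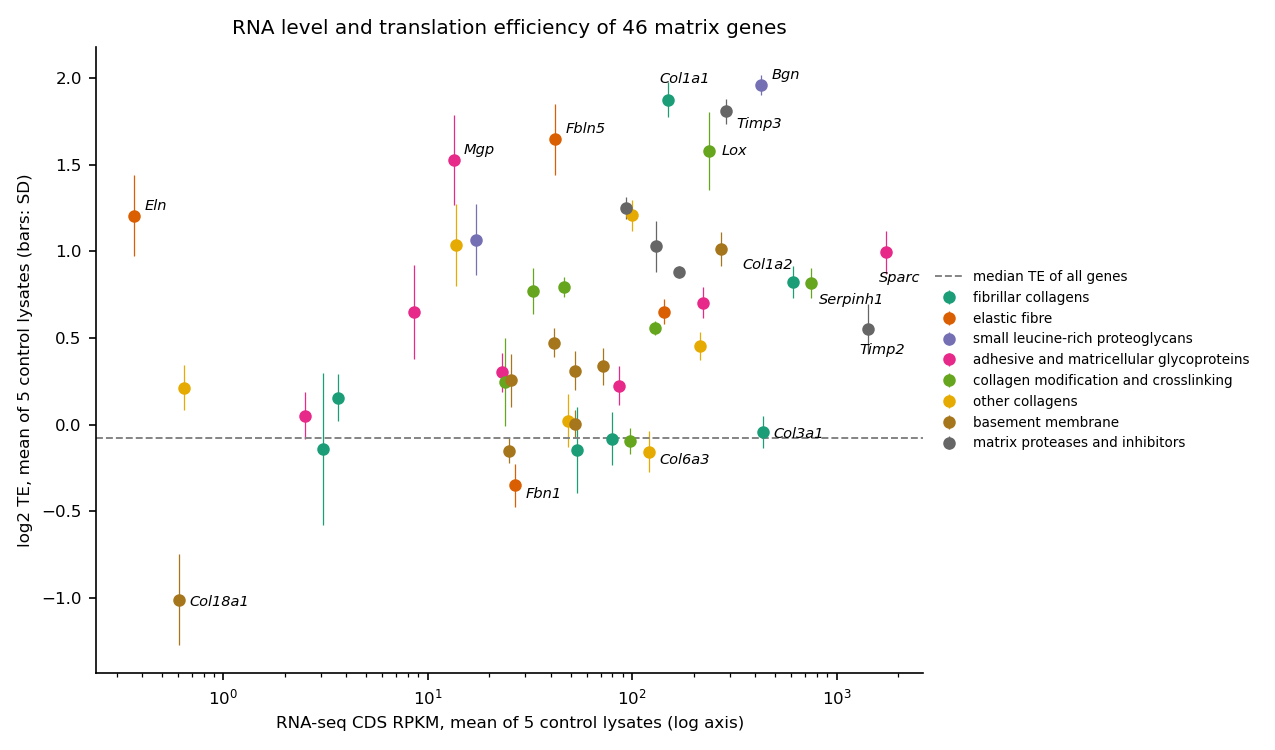
Mean RNA-seq CDS RPKM (log axis) against mean log2 TE in the 5 control lysates for the 46 matrix genes; points are genes coloured by role, bars are SD over lysates, and the dashed line is the median log2 TE of all genes (−0.076). Most points lie above the line, with Bgn (1.96) and Col1a1 (1.88) at the top and Col18a1 (−1.01) at the bottom.

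TE varied widely among members. Bgn (biglycan), Col1a1 (the α1 chain of type I collagen), Timp3, Fbln5 (fibulin-5, needed to assemble elastic fibres), Lox (lysyl oxidase) and Mgp (matrix Gla protein, an inhibitor of calcification) had the highest control means, with log2 TE of 1.96, 1.88, 1.81, 1.65, 1.58 and 1.53. Col18a1 at −1.01 and Fbn1 (fibrillin-1) at −0.35 had the lowest. The chains of type I collagen did not sit together, with Col1a1 at 1.88 and Col1a2 at 0.83, and Col3a1 was near the median of all genes at −0.042.

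AUG-initiated uORFs were predicted from sequence in 1 annotated transcript per gene (GENCODE vM21 on GRCm38), and their translation was not tested. Members held them about as often as other genes, in 24 of 46 (52.2%) against 49.9% of 10239 genes with an annotated 5′ UTR. Among genes with enough 5′ UTR reads for the comparison below, the shares were 57.1% of 35 members and 64.0% of 5092 genes. The position of 1 kind of uORF set 5 members apart: in Col1a1, Col1a2, Col3a1, Col5a2 and Dcn (decorin, a proteoglycan that binds collagen fibrils), a short uORF ended 2 nt before the start codon of the CDS. Such a uORF was found in 5 of 46 members (10.9%) and in 0.635% of all genes with a 5′ UTR. The 30 bases up to and including the CDS start codon, read from the GRCm38 genome along the transcript, are shown because these genes return in the 5′ UTR results; capitals mark the uORF start codon and the CDS start codon.
Col1a1 (chr11:94936342-94936371, plus strand, exon 1): aagagtctacATGtctagggtctagacATG
Col1a2 (chr6:4505813-4505842, plus strand, exon 1): aggagtctgcATGtctaagtggtagacATG
Col3a1 (chr1:45311721-45311750, plus strand, exon 1): aaagagtctcATGtctgatatttagacATG
Col5a2 (chr1:45502912-45502941, minus strand, exon 1): gaggacccacATGtctcatatttagacATG
Dcn (chr10:97479787-97483365, plus strand, exons 1 and 2, the span including the intron between them): aaggtcgtgaaaatacATGagataatcATG

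The uORF was 15 nt long in the 4 collagens and 9 nt long in Dcn. From the uORF start codon to the CDS start codon, the 4 collagens shared 14 of 20 letters, ATGTCTNNNNNNTAGACATG. This pattern was looked for only in the 20 bases that end with the CDS start codon, in the annotated transcript used for each gene. There it occurred in 4 of 10454 genes (0.0383%), the same 4 collagens, which are paralogs. Because the pattern was taken from these 4 sequences, their own matches were given in advance. The rest of the transcripts was not searched. As background, type I and type III collagen mRNAs are known to fold into a stem-loop around the start codon that the RNA-binding protein LARP6 recognises.

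The 2 kinds of control differed from each other in matrix genes, which bears on each comparison that pools them. With Gfp shRNA, both lysates were above all 3 scramble lysates in RNA for 22 of 46 members, against 16.8% of all genes, and below them for 2 members (Lox and Timp1), against 11.1%. In CDS footprints, the counts were 30 of 46 higher, against 20.9% of all genes, and 3 lower (Lox, Timp1 and Plod2), against 15.8%. TE was higher without overlap for 12 of 46 members against 6.62% of all genes and lower for 2 against 6.51%, and relative 5′ UTR translation (defined with its results) was higher for 0 of 35 against 4.02% and lower for 6 against 7.3%. With 3 and 2 lysates this is a description, with no test.

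Col3a1, the chain of type III collagen, shows the size of this gap. Its RNA was at 707, 589 and 478 with shRNA1, 438, 428 and 400.4 with shRNA2, 351, 328 and 315 with scramble and 587 and 595 with Gfp RPKM, so that Gfp lay inside the shRNA1 range and above shRNA2, and scramble lay below all other lysates. Mmp2, a gelatinase that cleaves denatured and basement membrane collagen, was at 277, 235 and 203 with shRNA1, 190.0, 195 and 189 with shRNA2, 139.8, 133 and 141 with scramble and 221 and 213 with Gfp RPKM in RNA, with scramble again lowest and Gfp among the knockdown lysates.

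Knockdown was first compared with control for RNA and CDS footprints, as log2(RPKM + 0.1), with limma across all 10516 genes and a Benjamini-Hochberg false discovery rate of 0.1. In RNA, 5 of 46 members passed, against 3.55% of all genes: Mgp, Col11a1, Bgn and Col4a1 rose (4 of 46, against 2.68%) and Nid1 fell (1 of 46, against 0.865%). In CDS footprints, 10 of 46 passed, against 10.0% of all genes: 6 rose (Mgp, Col11a1, Eln, Bgn, Col4a1 and Col8a1, against 5.47%) and 4 fell (Nid1, Lamb1, Lama4 and Loxl1, against 4.55%). The 5 members that passed in RNA also passed in footprints. The median member difference was 0.11 in RNA and 0.095 in footprints, beside 0.027 and 0.0072 over all genes.

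Knockdown and control lysates did not overlap for the same 5 members in RNA (4 higher, against 2.63% of all genes, and 1 lower, against 1.04%). In footprints they did not overlap for Mgp, Col11a1 and Bgn, which were higher (3 of 46, against 2.48%), and for Nid1 and Lamb1, which were lower (2 of 46, against 1.97%).

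**Figure D2:**
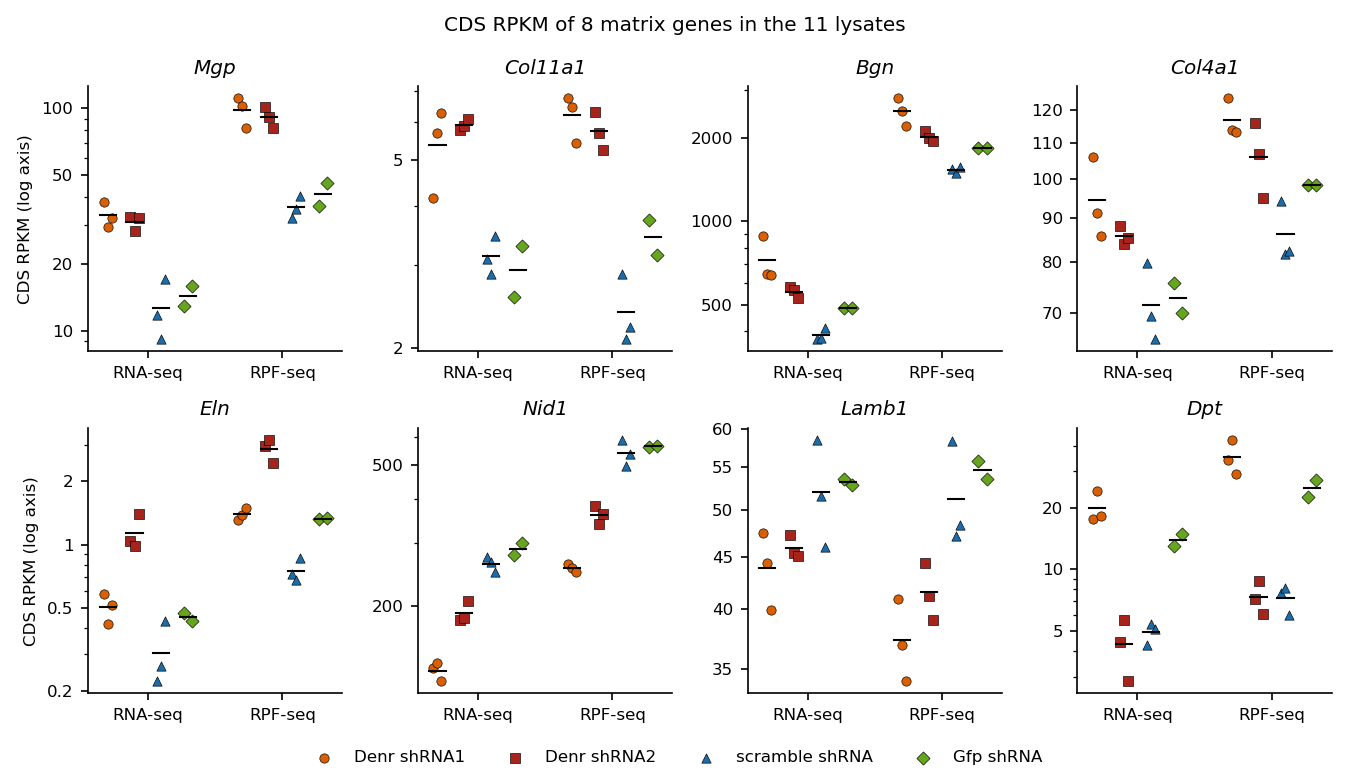
CDS RPKM (log axis) of 8 matrix genes in the 11 lysates, RNA-seq at left and RPF-seq at right in each panel; symbols are single lysates coloured by shRNA and black lines are group means. Mgp, Col11a1 and Bgn are higher and Nid1 lower in all 6 knockdown lysates in both assays, whereas Dpt is high with Denr shRNA1 and Gfp and low with Denr shRNA2 and scramble.

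Mgp (ENSMUSG00000030218, chr6:136872435-136875823, minus strand, GRCm38) rose most, on 42 to 177 RNA-seq and 113 to 484 RPF-seq reads per library. Its RNA was at 37.9, 29.3 and 32.0 with shRNA1, 32.4, 28.2 and 32.3 with shRNA2, 11.8, 9.15 and 17.1 with scramble and 12.9 and 15.9 with Gfp RPKM, and all knockdown lysates were above all controls. Its CDS footprints were at 111, 102 and 81.4 with shRNA1, 101, 92.0 and 82.1 with shRNA2, 32.1, 35.4 and 40.3 with scramble and 36.4 and 46.3 with Gfp RPKM, again without overlap. The levels with the 2 Denr shRNAs overlapped. The difference was 1.28 (SE 0.14, adjusted p 0.000549) in RNA, a 2.43-fold rise, and 1.32 (SE 0.10, adjusted p 3.7e-05) in footprints, a 2.49-fold rise.

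Among the fibrillar collagens, 1 of 7 rose in RNA and in footprints and none fell, and 6 of 7 differences were positive in each assay (median 0.20 in RNA and 0.27 in footprints). Over all genes, 42.9% of differences were negative in RNA and 48.1% in footprints. The riser was Col11a1 (ENSMUSG00000027966, chr3:114030540-114220718, plus strand), a chain of type XI collagen, a minor fibrillar collagen best known from cartilage. Col11a1 RNA was at 4.16, 5.71 and 6.27 with shRNA1, 5.77, 5.88 and 6.10 with shRNA2, 3.08, 2.87 and 3.45 with scramble and 2.57 and 3.29 with Gfp RPKM, with shRNA1 replicate 1 the lowest knockdown lysate but still above each control. Col11a1 footprints were at 6.75, 6.48 and 5.42 with shRNA1, 6.31, 5.71 and 5.24 with shRNA2, 2.87, 2.09 and 2.22 with scramble and 3.72 and 3.15 with Gfp RPKM, without overlap. The differences were 0.86 (SE 0.12, adjusted p 0.00429) in RNA and 1.09 (SE 0.14, adjusted p 0.00139) in footprints.

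The abundant fibrillar collagens did not pass. Col1a1 differed by 0.36 (SE 0.13, adjusted p 0.182) in RNA, with a 95% interval of 0.081 to 0.64. Col1a2 differed by 0.16 (SE 0.091, adjusted p 0.421), and Col3a1 by 0.25 (SE 0.20, adjusted p 0.579). In footprints, Col1a2 was at 1373, 1223 and 1104 with shRNA1, 1241, 1243 and 1069 with shRNA2, 1107, 929 and 917 with scramble and 1247 and 1229 with Gfp RPKM, with the Gfp lysates inside the knockdown range.

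Of the 2 small leucine-rich proteoglycans, Bgn rose in both assays. Bgn (ENSMUSG00000031375, chrX:73483602-73495933, plus strand) binds collagen and growth factors, and its RNA was at 888, 645 and 637 with shRNA1, 579, 565 and 526 with shRNA2, 374, 379.6 and 413 with scramble and 484 and 488 with Gfp RPKM. Its footprints were at 2794, 2509 and 2214 with shRNA1, 2115, 2004 and 1948 with shRNA2, 1551, 1493 and 1572 with scramble and 1838 and 1836 with Gfp RPKM. Scramble was lowest, Gfp lay between scramble and the knockdown, and shRNA1 was highest, without overlap between knockdown and control. The differences were 0.57 (SE 0.13, adjusted p 0.0389) in RNA and 0.44 (SE 0.099, adjusted p 0.0247) in footprints. Dcn differed by 0.32 (SE 0.16, adjusted p 0.336) in RNA and 0.35 (SE 0.13, adjusted p 0.135) in footprints, neither past the threshold.

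The basement membrane genes held 3 of the 4 members that fell in footprints. In RNA, 1 of 8 rose and 1 fell, and in footprints 1 rose and 3 fell, with 6 of 8 differences negative (median −0.14 in RNA and −0.29 in footprints). Nid1 (ENSMUSG00000005397, chr13:13437551-13512269, plus strand) encodes nidogen-1, which links the laminin and type IV collagen networks. Its RNA was at 133, 137 and 122 with shRNA1, 182, 185 and 206 with shRNA2, 274, 265 and 249 with scramble and 278 and 300.5 with Gfp RPKM. Its footprints were at 262, 255 and 249 with shRNA1, 382, 341 and 363 with shRNA2, 589, 498 and 539 with scramble and 563 and 568 with Gfp RPKM. All controls were above all knockdown lysates in both assays, and shRNA1 was below shRNA2. The fall was −0.79 (SE 0.13, adjusted p 0.00775) in RNA, 1.73-fold, and −0.86 (SE 0.11, adjusted p 0.00198) in footprints, 1.81-fold.

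Lamb1 (ENSMUSG00000002900, chr12:31265234-31329644, plus strand), the laminin β1 chain, fell in footprints alone. Lamb1 footprints were at 40.9, 36.9 and 34.0 with shRNA1, 44.4, 41.2 and 39.0 with shRNA2, 58.3, 47.2 and 48.3 with scramble and 55.8 and 53.6 with Gfp RPKM, without overlap between knockdown and control. Lamb1 RNA was at 47.5, 44.4 and 39.9 with shRNA1, 47.2, 45.4 and 45.1 with shRNA2, 58.5, 51.5 and 46.04 with scramble and 53.6 and 52.8 with Gfp RPKM, where scramble replicate 3 lay among the knockdown lysates. The differences were −0.42 (SE 0.078, adjusted p 0.0125) in footprints and −0.22 (SE 0.074, adjusted p 0.145) in RNA.

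Lama4, the laminin α4 chain, also fell in footprints, which were at 18.02, 16.6 and 14.6 with shRNA1, 19.6, 18.2 and 19.0 with shRNA2, 22.3, 19.0 and 20.7 with scramble and 26.8 and 24.2 with Gfp RPKM, with scramble replicate 2 inside the shRNA2 range. Its difference was −0.35 (SE 0.096, adjusted p 0.0531). Lamc1, the laminin γ1 chain that partners both, differed by −0.32 (SE 0.12, adjusted p 0.123) in footprints and did not pass.

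Col4a1, a chain of type IV collagen, went the other way. Col4a1 RNA was at 106, 91.4 and 85.9 with shRNA1, 88.1, 84.0 and 85.5 with shRNA2, 79.9, 69.4 and 65.2 with scramble and 75.7 and 70.0 with Gfp RPKM, without overlap. Its footprints were at 124, 114 and 113 with shRNA1, 116, 107 and 95.02 with shRNA2, 94.3, 81.9 and 82.5 with scramble and 98.4 and 98.3 with Gfp RPKM, and shRNA2 replicate 3 lay below both Gfp lysates. Col4a1 rose by 0.32 (SE 0.078, adjusted p 0.0543) in RNA and 0.29 (SE 0.076, adjusted p 0.0439) in footprints.

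**Figure D3:**
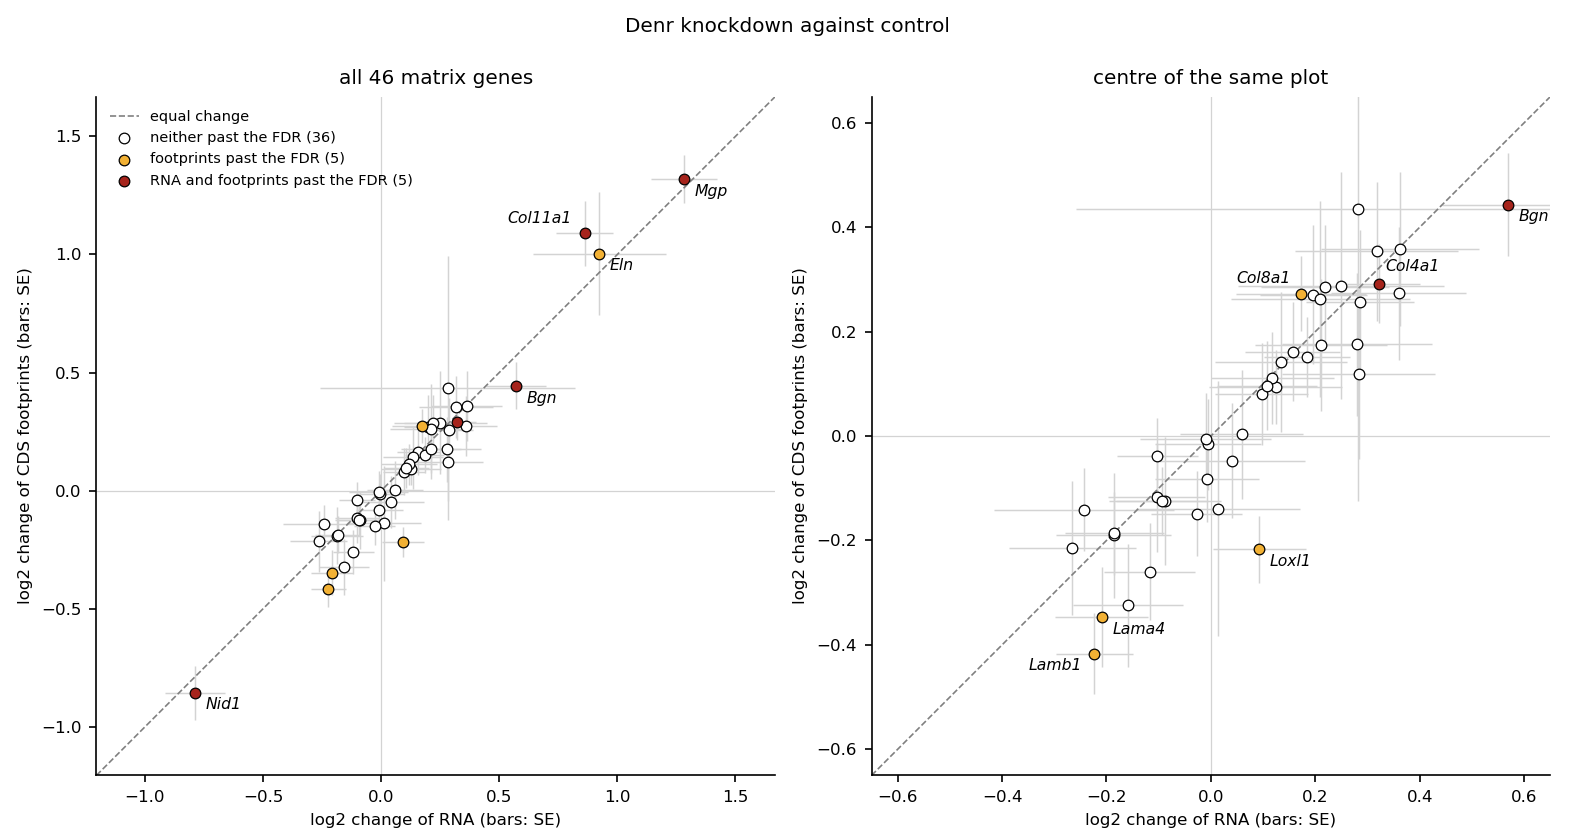
Log2 difference between knockdown and control in RNA (x) against that in CDS footprints (y) for the 46 matrix genes, all at left and the centre enlarged at right; points are genes, bars are SE, the dashed line marks equal change and colours mark the assays that passed the false discovery rate of 0.1. Mgp, Col11a1, Bgn, Col4a1 and Nid1 passed in both assays, 5 passed in footprints alone and 36 in neither, and the points lie along the line.

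In the elastic fibre group, 1 of 4 rose in footprints and none passed in RNA. This was Eln (ENSMUSG00000029675, chr5:134702593-134747323, minus strand), whose values rest on 9 to 63 RNA-seq and 20 to 105 RPF-seq reads per library. Eln RNA was at 0.584, 0.420 and 0.514 with shRNA1, 1.04, 0.982 and 1.40 with shRNA2, 0.223, 0.263 and 0.432 with scramble and 0.473 and 0.434 with Gfp RPKM, and its footprints were at 1.31, 1.38 and 1.499 with shRNA1, 2.94, 3.15 and 2.46 with shRNA2, 0.722, 0.675 and 0.860 with scramble and 1.32 and 1.33 with Gfp RPKM. The shRNA2 lysates were above all others, whereas shRNA1 overlapped Gfp. The differences were 1.00 (SE 0.26, adjusted p 0.0436) in footprints and 0.92 (SE 0.28, adjusted p 0.121) in RNA.

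Of the 6 other collagens, none passed in RNA and 1 rose in footprints. Col8a1, a network-forming short-chain collagen, had footprints at 39.2, 31.7 and 36.3 with shRNA1, 34.5, 30.2 and 31.4 with shRNA2, 27.1, 27.2 and 30.7 with scramble and 27.5 and 27.2 with Gfp RPKM, and scramble replicate 3 lay above shRNA2 replicate 2. Its difference was 0.27 (SE 0.073, adjusted p 0.0479).

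Among the 7 genes for collagen modification and crosslinking, none passed in RNA and 1 fell in footprints. Loxl1 (ENSMUSG00000032334, chr9:58287738-58313186, minus strand), a lysyl oxidase that crosslinks elastin, had footprints at 78.7, 85.5 and 72.6 with shRNA1, 78.5, 79.2 and 77.2 with shRNA2, 97.4, 89.4 and 79.4 with scramble and 93.9 and 97.8 with Gfp RPKM. Loxl1 RNA was at 129, 95.4 and 91.9 with shRNA1, 110.4, 95.2 and 107 with shRNA2, 105, 94.4 and 90.0 with scramble and 103 and 96.4 with Gfp RPKM. Footprints were lower in the knockdown with some overlap, while RNA levels overlapped throughout the control range. The differences were −0.22 (SE 0.064, adjusted p 0.0672) in footprints and 0.093 (SE 0.089, adjusted p 0.653) in RNA. The footprint call of Loxl1 was lost in 10 of 21 alternatives, the most of the 10 footprint calls (adjusted p from 0.029 to 0.207 over the 21), and it did not pass with either Denr shRNA alone or with scramble alone as control. Plod2, a lysyl hydroxylase that acts on collagen ends, had RNA at 11.8, 20.5 and 23.4 with shRNA1, 21.3, 21.9 and 22.6 with shRNA2, 22.3, 23.5 and 30.8 with scramble and 17.9 and 24.4 with Gfp RPKM, with shRNA1 replicate 1 apart from the rest, and differed by −0.24 (SE 0.17, adjusted p 0.525).

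None of the 5 proteases and inhibitors passed in either assay. Timp1, a secreted inhibitor of metalloproteinases, had RNA at 122, 102 and 99.4 with shRNA1, 109, 99.6 and 109 with shRNA2, 164, 142 and 132 with scramble and 122 and 91.3 with Gfp RPKM, with the controls on both sides of the knockdown, and differed by −0.27 (SE 0.12, adjusted p 0.304). In the adhesive group, Mgp was the single member to pass, and the remaining 6 differed by up to 0.29 in RNA.

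The RNA count moved with the controls, as did that of all genes. With scramble shRNA alone as control, 16 of 46 members passed in RNA, against 8.94% of all genes, and without scramble replicate 2, 3 passed, against 1.32%. In footprints, 23 passed with scramble alone, against 25.2%, and 6 without scramble replicate 1, against 4.6%.

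TE was then compared to ask whether footprints moved apart from RNA. No member passed (0 of 46, against 0.475% of all genes, of which 0.0% rose and 0.475% fell), with limma on log2 TE or with an interaction term over both kinds of library. At an unadjusted p under 0.05, 0 of 46 members were higher, against 1.47% of all genes, and 2 were lower (Loxl1 and Lamb1), against 5.18%. The median TE difference was −0.015, beside −0.012 over all genes, and no member's lysates separated (0 of 46, against 0.0951% of all genes higher and 1.32% lower). The 95% intervals of the 46 differences reached from −0.57 to 0.67, with a median half-width of 0.19, and larger differences could also fail the adjusted threshold, as that of Loxl1 did.

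Loxl1 had the lowest TE difference. Its log2 TE was −0.71, −0.16 and −0.34 with shRNA1, −0.49, −0.27 and −0.46 with shRNA2, −0.11, −0.080 and −0.18 with scramble and −0.13 and 0.020 with Gfp, and shRNA1 replicate 2 lay inside the control range. The difference was −0.31 (SE 0.096, adjusted p 0.383). Lamb1 had a log2 TE of −0.21, −0.26 and −0.23 with shRNA1, −0.089, −0.14 and −0.21 with shRNA2, −0.0034, −0.13 and 0.070 with scramble and 0.057 and 0.021 with Gfp, with an overlap of shRNA2 replicate 1 and scramble replicate 2, and a difference of −0.19 (SE 0.064, adjusted p 0.458). For Lamc1, log2 TE was 0.16, 0.14 and 0.090 with shRNA1, 0.40, 0.17 and −0.092 with shRNA2, 0.33, 0.14 and 0.27 with scramble and 0.43 and 0.38 with Gfp, the groups overlapped, and the difference was −0.17 (SE 0.088, adjusted p 0.835). All 8 basement membrane genes had a negative TE difference (median −0.14), as did 30 of 46 members and 54.7% of all genes, and none of the 8 passed.

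The 3 highest TE differences were those of Col11a1, Dpt and Plod2. Col11a1 had a log2 TE of 0.69, 0.18 and −0.21 with shRNA1, 0.13, −0.042 and −0.21 with shRNA2, −0.10, −0.44 and −0.62 with scramble and 0.52 and −0.061 with Gfp, a spread wider than its difference of 0.23 (SE 0.20, adjusted p 0.991). Dpt (dermatopontin, which binds decorin and collagen) had a log2 TE of 0.95, 0.82 and 0.68 with shRNA1, 0.68, 0.62 and 1.07 with shRNA2, 0.82, 0.57 and 0.21 with scramble and 0.78 and 0.88 with Gfp and a difference of 0.15 (SE 0.13, adjusted p 0.973). Plod2 had a log2 TE of 1.04, 0.12 and 0.22 with shRNA1, 0.24, 0.21 and 0.27 with shRNA2, 0.32, 0.25 and 0.078 with scramble and 0.63 and −0.040 with Gfp, in which shRNA1 replicate 1 stood apart, and a difference of 0.10 (SE 0.17, adjusted p 0.999). The groups overlapped for all 3.

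Footprints on 5′ UTRs were compared as relative 5′ UTR translation, log2(5′ UTR RPKM + 0.1) minus log2(CDS RPKM + 0.1) in the same RPF-seq library. It was taken for genes whose 5′ UTR held 20 or more reads in 9 or more of the 11 libraries, which left 35 of 46 members and 5176 genes in all. In controls, members had less of it than most genes: the median was −1.16 against −0.89, and 14 of 35 lay above the median of all genes. Col6a3 (1.66), Col3a1 (0.65), Col1a1 (0.55) and Fn1 (fibronectin, 0.41) had denser footprints on the 5′ UTR than on the CDS, while Sparc (−3.96), Timp1 (−3.91) and Serpinh1 (−3.89) had the lowest values.

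In the knockdown, relative 5′ UTR translation rose for 9 of 35 members, against 17.9% of all genes tested, and fell for none, against 0.0386% (18.0% in either direction). The 9 were Lamb1, Fbn1, Nid1, Loxl1, Col4a2, Fn1, Thbs1, Timp3 and Col8a1. In the annotated transcript used for each gene, Fbn1, Loxl1, Col4a2 and Timp3 held an AUG uORF. Lamb1, Nid1, Fn1, Thbs1 and Col8a1 held none. Other start codons were not searched, and a relation of the rise to uORFs was not tested. The differences of 33 of 35 were positive, with a median of 0.38 beside 0.33 over all genes tested, so the rise of members was close to that of all genes. When each library was centred on its median, which removes that common rise, 0 of 35 passed, against 0.0773% of all genes tested.

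Lamb1 had the largest difference. Its relative 5′ UTR translation was −1.64, −0.71 and −0.77 with shRNA1, −1.31, −0.94 and −1.16 with shRNA2, −2.13, −2.01 and −1.87 with scramble and −2.07 and −1.57 with Gfp, and shRNA1 replicate 1 was just below Gfp replicate 2. The difference was 0.84 (SE 0.19, adjusted p 0.035). In Loxl1, relative 5′ UTR translation was 0.50, 0.39 and 0.36 with shRNA1, 0.29, 0.16 and 0.39 with shRNA2, −0.49, 0.16 and −0.047 with scramble and −0.56 and −0.053 with Gfp, the one member without overlap (1 of 35, against 4.83% of all genes higher and 0.0% lower), and the difference was 0.55 (SE 0.16, adjusted p 0.0626). Both genes also fell in CDS footprints, the denominator of this measure.

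Fbn1, the microfibril scaffold of elastic fibres, was at −0.21, 0.35 and 0.51 with shRNA1, 0.42, 0.27 and 0.41 with shRNA2, −0.18, 0.088 and −0.29 with scramble and −0.79 and −0.32 with Gfp, with shRNA1 replicate 1 apart from the other knockdown lysates, and differed by 0.59 (SE 0.18, adjusted p 0.0649). Nid1 was at −2.95, −2.45 and −2.13 with shRNA1, −2.81, −3.08 and −2.96 with shRNA2, −3.54, −3.05 and −3.35 with scramble and −3.60 and −2.95 with Gfp, overlapping between groups, and differed by 0.57 (SE 0.21, adjusted p 0.0915). Without division by the CDS, the difference of Nid1 5′ UTR footprints was −0.29.

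The other risers overlapped with controls. Col4a2, the partner chain of Col4a1, was at −0.999, −0.52 and −0.28 with shRNA1, −0.94, −0.38 and −0.46 with shRNA2, −1.31, −0.80 and −1.16 with scramble and −1.56 and −0.83 with Gfp, a difference of 0.54 (SE 0.19, adjusted p 0.0861). Fn1, which connects cells with collagen, was at 0.48, 0.95 and 1.16 with shRNA1, 0.67, 1.03 and 1.15 with shRNA2, 0.050, 0.67 and 0.65 with scramble and 0.067 and 0.63 with Gfp, a difference of 0.50 (SE 0.18, adjusted p 0.092). Thbs1, an adhesive glycoprotein that activates latent TGF-beta, was at −0.81, −0.30 and −0.050 with shRNA1, −0.55, −0.011 and −0.41 with shRNA2, −1.06, −0.80 and −0.45 with scramble and −1.03 and −0.85 with Gfp, a difference of 0.48 (SE 0.18, adjusted p 0.0926). In these 3 genes, the lowest knockdown lysate was shRNA1 replicate 1.

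Timp3, a matrix-bound inhibitor of metalloproteinases, was at −2.13, −2.05 and −1.999 with shRNA1, −2.25, −2.02 and −2.45 with shRNA2, −2.70, −2.44 and −2.60 with scramble and −2.77 and −2.58 with Gfp, with shRNA2 replicate 3 level with scramble replicate 2, and differed by 0.47 (SE 0.16, adjusted p 0.0807). Col8a1 was at 0.37, 0.61 and 0.35 with shRNA1, 0.22, 0.56 and 0.27 with shRNA2, −0.14, 0.045 and −0.39 with scramble and −0.21 and 0.38 with Gfp, with Gfp replicate 2 inside the knockdown range, and differed by 0.46 (SE 0.16, adjusted p 0.0861).

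The 5 genes with the uORF ending 2 nt before the CDS, whose sequences are given above, were among the members with the smallest differences; they were singled out after the values were seen, and no test was made. Col1a1 was at 0.12, 0.53 and 0.78 with shRNA1, 0.38, 0.50 and 0.84 with shRNA2, −0.22, 1.07 and 1.38 with scramble and 0.15 and 0.35 with Gfp, where scramble alone spanned most of the range, and differed by −0.022 (SE 0.25, adjusted p 0.947). Dcn was at −1.87, −1.97 and −1.80 with shRNA1, −2.53, −2.27 and −2.37 with shRNA2, −2.44, −1.79 and −1.63 with scramble and −2.58 and −1.86 with Gfp and differed by −0.078 (SE 0.21, adjusted p 0.782). These were the 2 negative differences among the 35 (6.45% of all genes tested were negative), and neither sign was stable. Dcn turned positive in 5 of 23 alternatives and Col1a1 in 6 of 23, up to 0.28 and 0.25 without division by the CDS.

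Col1a2 was at −0.59, −0.45 and −0.43 with shRNA1, −0.62, −0.61 and −0.62 with shRNA2, −0.92, −0.25 and −0.35 with scramble and −1.03 and −0.55 with Gfp, nearly constant with shRNA2, and differed by 0.067 (SE 0.17, adjusted p 0.762). Col3a1 was at 0.90, 0.94 and 0.30 with shRNA1, 1.12, 0.95 and 0.87 with shRNA2, 0.70, 0.98 and −0.38 with scramble and 0.83 and 1.10 with Gfp and differed by 0.20 (SE 0.23, adjusted p 0.514). Col5a2 was at −0.71, −0.34 and −0.51 with shRNA1, −0.71, −0.40 and −0.35 with shRNA2, −1.11, −0.26 and −0.63 with scramble and −0.98 and −0.55 with Gfp and differed by 0.20 (SE 0.17, adjusted p 0.376). Knockdown and control overlapped in each. The median of the 5 was 0.067, beside 0.45 (0.041 to 0.84) for the 30 other members tested, and the 42 tested genes outside the module with a uORF at this distance had a median of 0.22, beside 0.33 over the genes tested outside the module. Where on the 5′ UTR the footprints lay is not analysed here.

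**Figure D4:**
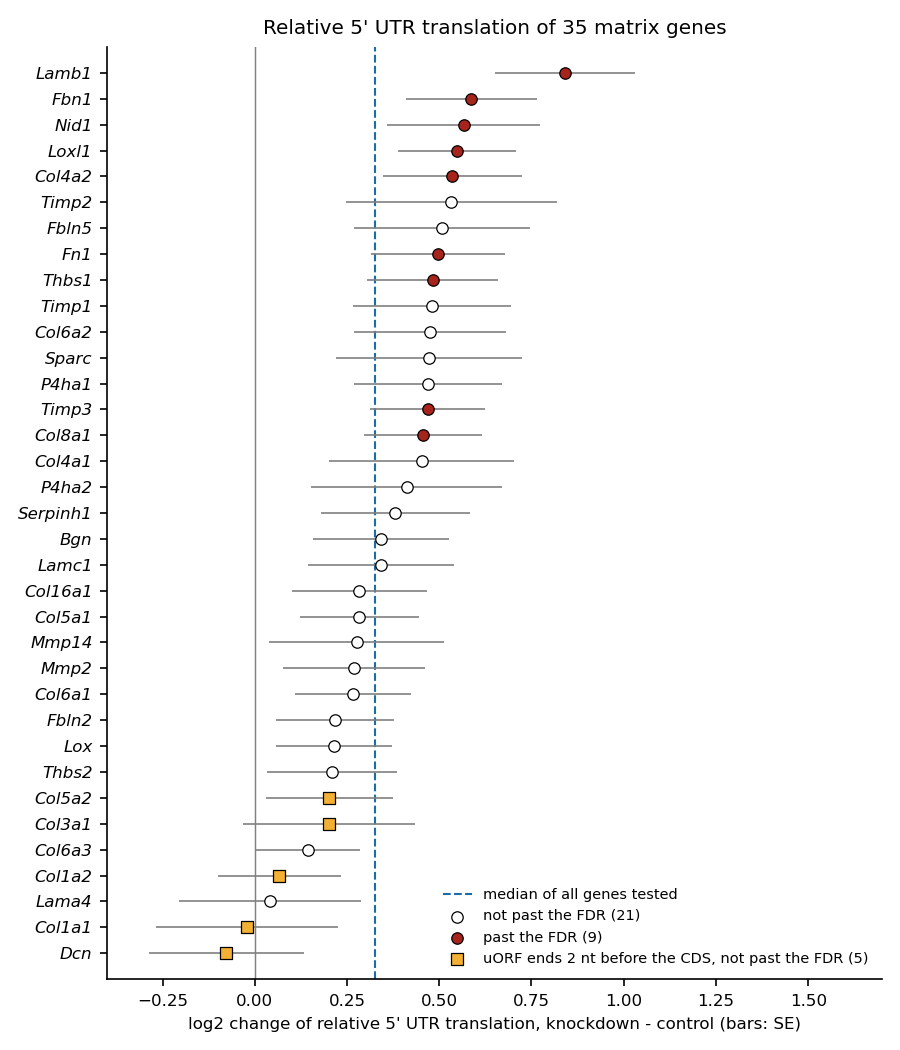
Log2 difference in relative 5′ UTR translation between knockdown and control for the 35 matrix genes with enough 5′ UTR reads, ordered by size; points are genes, bars are SE, and the dashed line is the median of all 5176 genes tested (0.33). 33 of 35 points are above 0, and 9 passed the false discovery rate of 0.1 (filled). The 5 genes with a uORF ending 2 nt before the CDS (squares) lie to the left of the dashed line. Several members without such a uORF lie there too, among them Lama4 (0.041) and Fbln2 (0.22).

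The count of 9 was unstable in both directions, as was that of all genes tested. It was 0 with shRNA1 alone against all controls (0.0966% of all genes tested passed), with shRNA2 alone (0.174%) and without shRNA2 replicate 2 (0.734%). It was 1 without shRNA1 replicate 2 (2.41%), shRNA1 replicate 3 (5.72%) or Gfp replicate 1 (1.85%), and 2 without scramble replicate 1 (7.94%) or with scramble alone as control (9.89%). It was 12 without Gfp replicate 2 (34.3%) and 14 for 5′ UTR footprints without division by the CDS (23.1%).

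The 2 Denr shRNAs were then compared directly, as shRNA2 minus shRNA1, in a fit of all 4 groups that shares their spread. The 6 Denr lysates enter both this comparison and the previous one. In RNA, 5 of 46 members passed, against 2.06% of all genes: Nid1 and Eln were higher with shRNA2 (2 of 46, against 1.13%), and Dpt, Dcn and Col5a2 were lower (3 of 46, against 0.932%). In CDS footprints, 15 of 46 passed, against 9.69%: 8 were higher (Eln, Nid1, Fbln5, Lamc1, Timp3, Plod1, Col6a3 and Timp1, against 5.68%) and 7 were lower (Dpt, Col3a1, Col5a2, Dcn, Mmp2, Bgn and Timp2, against 4.01%). The 5 members that passed in RNA also passed in footprints. The median difference of members was 0.0057 in RNA and −0.062 in footprints, beside −0.020 and −0.013 over all genes. The lysates did not overlap for 8 members higher and 8 lower in RNA (against 7.81% and 11.3% of all genes), and for 13 higher and 8 lower in footprints (against 13.7% and 13.8%).

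Dpt (ENSMUSG00000026574, chr1:164796644-164824266, plus strand) differed most, on 25 to 268 RNA-seq and 52 to 353 RPF-seq reads per library. Its RNA was at 17.6, 24.1 and 18.2 with shRNA1, 4.45, 5.69 and 2.85 with shRNA2, 4.30, 5.41 and 5.13 with scramble and 13.0 and 14.8 with Gfp RPKM. Its footprints were at 34.2, 42.7 and 29.3 with shRNA1, 7.19, 8.77 and 6.08 with shRNA2, 7.65, 8.09 and 5.97 with scramble and 22.5 and 27.3 with Gfp RPKM. In both assays, shRNA1 was highest and Gfp next, and shRNA2 overlapped with scramble. The shRNA2 minus shRNA1 difference was −2.22 (SE 0.22, adjusted p 0.00197) in RNA, 4.65-fold, and −2.25 (SE 0.17, adjusted p 3.34e-05) in footprints, 4.76-fold, whereas knockdown against control gave 0.28 (SE 0.54, adjusted p 0.844) in RNA.

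Dcn, to which dermatopontin binds, was also lower with shRNA2. Dcn RNA was at 23.3, 27.7 and 25.99 with shRNA1, 18.6, 19.8 and 14.6 with shRNA2, 14.3, 15.1 and 17.01 with scramble and 17.8 and 21.6 with Gfp RPKM, with no overlap between the shRNAs. Its footprints were at 52.7, 60.1 and 45.1 with shRNA1, 39.8, 41.0 and 39.0 with shRNA2, 30.5, 33.2 and 30.4 with scramble and 46.03 and 41.1 with Gfp RPKM. The differences were −0.54 (SE 0.13, adjusted p 0.0897) in RNA and −0.39 (SE 0.095, adjusted p 0.0314) in footprints. Bgn, the other proteoglycan, passed in footprints, with −0.30 (SE 0.086, adjusted p 0.0587), at the levels given above.

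All 7 fibrillar collagens had lower footprints with shRNA2, as did 53.5% of all genes, and 2 of them passed. Col5a2, a chain of type V collagen that limits fibril width, had RNA at 113, 104 and 94.5 with shRNA1, 83.7, 81.0 and 76.8 with shRNA2, 77.8, 73.2 and 75.2 with scramble and 86.8 and 86.1 with Gfp RPKM. Its footprints were at 118, 103 and 97.5 with shRNA1, 79.7, 81.0 and 73.6 with shRNA2, 75.7, 62.4 and 63.4 with scramble and 91.5 and 88.8 with Gfp RPKM. Col5a2 was higher with shRNA1 than in any other lysate in both assays. It differed by −0.36 (SE 0.084, adjusted p 0.0726) in RNA and −0.44 (SE 0.089, adjusted p 0.0116) in footprints.

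Col3a1 footprints were at 678, 601 and 507 with shRNA1, 444, 438 and 366 with shRNA2, 334, 299 and 292 with scramble and 603 and 623 with Gfp RPKM, with shRNA2 between scramble and Gfp. The difference was −0.51 (SE 0.11, adjusted p 0.0141) in footprints, and in RNA −0.47 (SE 0.12, adjusted p 0.116), which did not pass.

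Nid1 and Eln were higher with shRNA2 in both assays, from the lysate values given above. Nid1 differed by 0.54 (SE 0.086, adjusted p 0.012) in RNA and 0.50 (SE 0.072, adjusted p 0.00137) in footprints. It was thus below control with both shRNAs but less so with shRNA2, in which Denr was lower. A relation of Nid1 to the Denr level was not tested. Eln differed by 1.03 (SE 0.24, adjusted p 0.077) in RNA and 0.97 (SE 0.15, adjusted p 0.00269) in footprints. Fbln5, which binds elastin, had footprints at 123, 112 and 98.1 with shRNA1, 156, 142 and 132 with shRNA2, 157, 128 and 127 with scramble and 129 and 113 with Gfp RPKM, with all shRNA1 lysates below all shRNA2 lysates, and differed by 0.37 (SE 0.11, adjusted p 0.0581). Fbln5 RNA, at 44.1, 38.3 and 29.5 with shRNA1, 48.9, 49.9 and 48.8 with shRNA2, 47.8, 43.8 and 32.1 with scramble and 46.1 and 39.3 with Gfp RPKM, differed by 0.42 (SE 0.16, adjusted p 0.306) and did not pass.

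Lamc1 had footprints at 50.7, 47.6 and 40.0 with shRNA1, 61.3, 59.4 and 53.7 with shRNA2, 67.2, 57.0 and 52.9 with scramble and 73.9 and 75.3 with Gfp RPKM, with shRNA1 below shRNA2 and Gfp highest, and differed by 0.34 (SE 0.10, adjusted p 0.077). Plod1, a lysyl hydroxylase, had footprints at 68.5, 71.3 and 65.99 with shRNA1, 84.4, 85.2 and 80.0 with shRNA2, 78.4, 73.4 and 72.8 with scramble and 88.8 and 87.6 with Gfp RPKM, again with Gfp highest, and differed by 0.28 (SE 0.059, adjusted p 0.0156). Thbs1 had footprints at 28.2, 37.1 and 24.8 with shRNA1, 33.0, 43.7 and 41.5 with shRNA2, 27.7, 24.7 and 25.7 with scramble and 32.6 and 32.7 with Gfp RPKM, overlapping between the shRNAs, and its 0.40 (SE 0.14, adjusted p 0.113) did not pass.

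The proteases and inhibitors split. Timp3 had footprints at 934, 961 and 1031 with shRNA1, 1185, 1209 and 1192 with shRNA2, 906, 947 and 1057 with scramble and 1088 and 1063 with Gfp RPKM, highest with shRNA2, and differed by 0.29 (SE 0.073, adjusted p 0.0331). Mmp2 had footprints at 462, 456 and 399 with shRNA1, 369, 344 and 338 with shRNA2, 256, 239 and 264 with scramble and 404 and 407 with Gfp RPKM, lower with shRNA2 than with shRNA1 and lowest with scramble, and differed by −0.32 (SE 0.071, adjusted p 0.0193). Timp2 had footprints at 1919, 2041 and 2019.9 with shRNA1, 1675, 1681 and 1651 with shRNA2, 2024, 1949 and 1939.5 with scramble and 2177 and 2311 with Gfp RPKM, lowest with shRNA2, and differed by −0.26 (SE 0.066, adjusted p 0.0402).

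**Figure D5:**
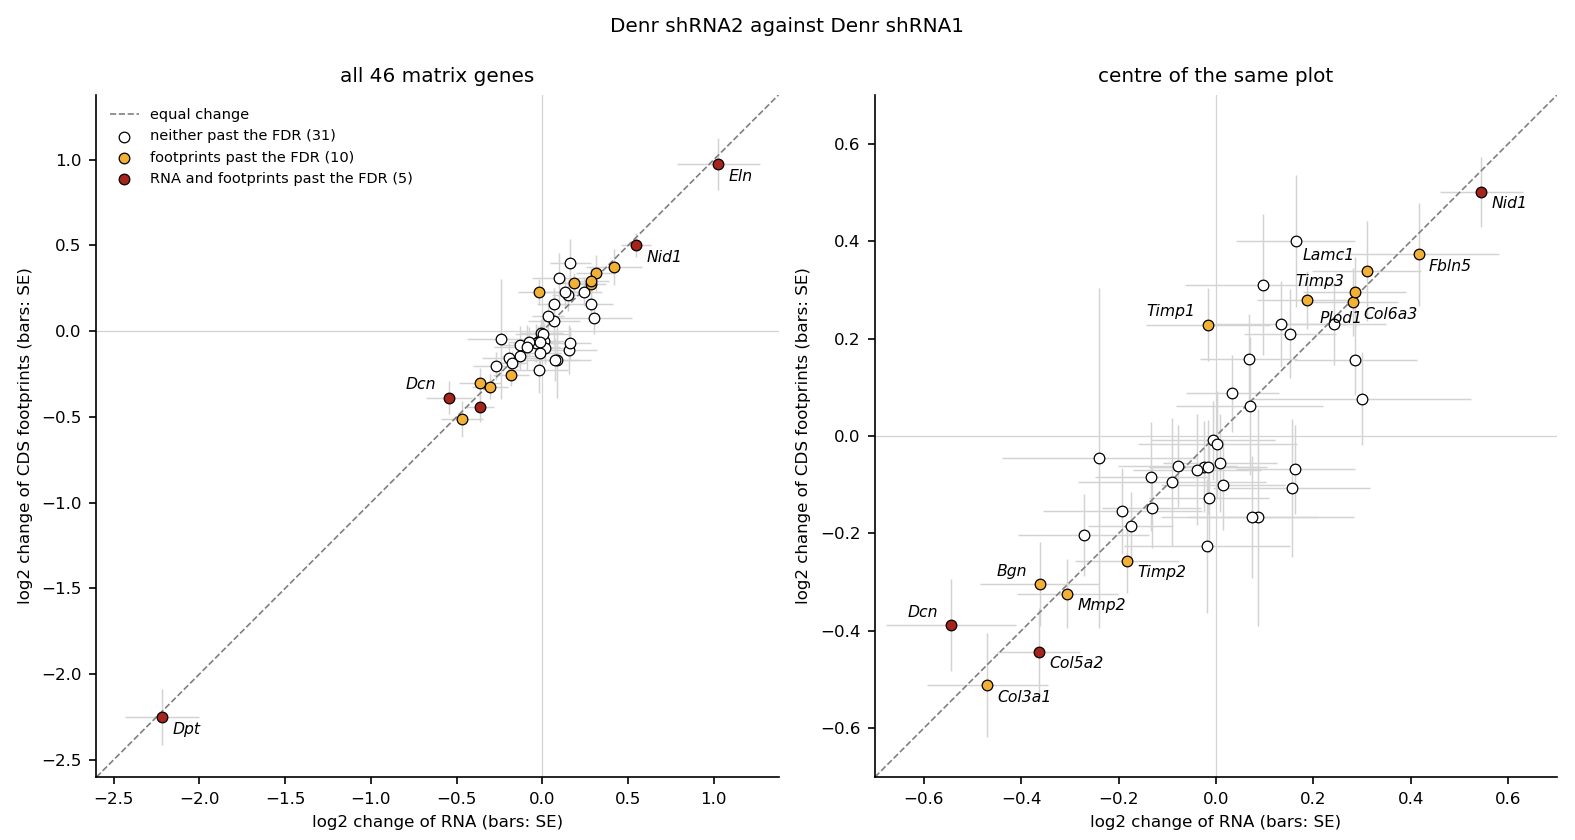
Log2 difference between Denr shRNA2 and Denr shRNA1 in RNA (x) against that in CDS footprints (y) for the 46 matrix genes, all at left and the centre enlarged at right; points are genes, bars are SE, the dashed line marks equal change and colours mark the assays that passed the false discovery rate of 0.1. Dpt lies far below 0 in both assays (−2.22 and −2.25), Eln and Nid1 lie above, and 10 members passed in footprints alone.

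The RNA count was 2 without shRNA1 replicate 2 (0.837% of all genes passed), without any one of the 3 shRNA2 lysates (0.58% to 1.38%) or with the 6 Denr lysates alone (0.884%). The footprint count was 9 without shRNA1 replicate 2 (6.15%). In RNA, Dcn and Col5a2 each lost their call in 6 of 14 alternatives and Eln in 6 of 13, whereas Dpt and Nid1 kept theirs in all 14.

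No member differed between the shRNAs in TE (0 of 46, against 0.0% of all genes, with limma and with the interaction term; at an unadjusted p under 0.05, 1 was higher, against 2.02%, and 1 lower, against 1.71%) or in relative 5′ UTR translation (0 of 35, against 0.0%). In the latter, 0 were higher, against 0.618%, and 1 lower, against 2.09%, at an unadjusted p under 0.05. For TE, the most negative difference was that of Col11a1, −0.26 (SE 0.23, adjusted p 0.972), and the most positive that of Timp1, 0.25 (SE 0.12, adjusted p 0.972). Timp1 had a log2 TE of 0.73, 1.02 and 1.12 with shRNA1, 1.23, 1.17 and 1.21 with shRNA2, 0.95, 1.08 and 1.23 with scramble and 0.84 and 1.04 with Gfp. Thbs1, with 0.24 (SE 0.11, adjusted p 0.972), had a log2 TE of 0.16, 0.24 and 0.070 with shRNA1, 0.34, 0.52 and 0.32 with shRNA2, 0.42, 0.12 and 0.29 with scramble and 0.36 and 0.33 with Gfp. In TE the 2 shRNAs did not overlap for 3 members higher (Timp1 and Thbs1 among them) and 1 lower, against 5.46% and 3.0% of all genes, and in relative 5′ UTR translation for 0 of 35 higher and 2 lower, against 3.52% and 6.07%.

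Col12a1, a fibril-associated collagen, had a log2 TE of 0.32, 0.26 and −0.053 with shRNA1, 0.011, −0.28 and 0.046 with shRNA2, 0.014, 0.16 and 0.31 with scramble and 0.33 and 0.26 with Gfp and a difference of −0.25 (SE 0.14, adjusted p 0.972). Col5a3 had a log2 TE of 0.13, 0.42 and 0.17 with shRNA1, 0.15, 0.019 and −0.16 with shRNA2, 0.095, −0.041 and 0.17 with scramble and 0.26 and 0.30 with Gfp and a difference of −0.24 (SE 0.12, adjusted p 0.972). Tnc (tenascin-C, a matricellular glycoprotein) had a log2 TE of −0.23, 0.014 and −0.11 with shRNA1, 0.087, 0.26 and −0.036 with shRNA2, −0.091, −0.073 and 0.23 with scramble and 0.082 and 0.12 with Gfp and a difference of 0.21 (SE 0.12, adjusted p 0.972). In these 3 genes the lysates of the 2 shRNAs overlapped.

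For relative 5′ UTR translation, P4ha2, a catalytic subunit of prolyl hydroxylase, was at −1.29, −1.02 and −0.43 with shRNA1, −1.97, −1.14 and −2.08 with shRNA2, −1.72, −1.56 and −1.56 with scramble and −2.26 and −1.58 with Gfp and differed by −0.82 (SE 0.30, adjusted p 0.998). Timp2 was at −3.08, −2.49 and −2.22 with shRNA1, −3.57, −2.88 and −3.11 with shRNA2, −3.60, −2.80 and −3.05 with scramble and −4.46 and −3.20 with Gfp and differed by −0.59 (SE 0.35, adjusted p 0.998). Dcn, at the values given above, differed by −0.51 (SE 0.27, adjusted p 0.998). The highest positive differences were those of Col3a1 (0.26), Fbn1 (0.15) and Col1a1 (0.10). The 95% intervals of the 35 differences reached from −1.46 to 0.91, with a median half-width of 0.55, and larger differences could also fail the adjusted threshold, as that of P4ha2 did.

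Genes that act on the same pathways but are no members were counted from 3 lists. Their counts stand beside shares of all genes of 2.68% higher and 0.865% lower in RNA, 5.47% and 4.55% in footprints, and 17.9% and 0.0386% in relative 5′ UTR translation. Of 24 genes for procollagen folding, secretion and trimming, 1 rose and 1 fell in RNA in the knockdown: P3h3, a prolyl 3-hydroxylase family member, by 0.31 (adjusted p 0.0975), and Crtap, a partner of prolyl 3-hydroxylase, by −0.33 (adjusted p 0.0924). In footprints 1 rose and 2 fell: Creb3l1, a membrane-bound transcription factor for collagen genes, by 0.49 (adjusted p 0.0698), Crtap by −0.44 (adjusted p 0.0242) and Sec24d, a coat protein of secretory vesicles, by −0.23 (adjusted p 0.069). In relative 5′ UTR translation 5 of the 9 tested rose and 0 fell: Pcolce, which enhances procollagen trimming, by 0.81 (adjusted p 0.0375), Sar1b by 0.73 (adjusted p 0.0546), P3h4 by 0.68 (adjusted p 0.0637), P4hb, the β subunit of prolyl hydroxylase, by 0.65 (adjusted p 0.0578) and Plod3 by 0.62 (adjusted p 0.0637).

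Of 25 genes for TGF-beta and CCN signals to the matrix, 2 rose and 0 fell in RNA: Eng, a TGF-beta co-receptor, by 0.77 (adjusted p 0.0279) and Tgfb1, a ligand, by 0.60 (adjusted p 0.0416). In footprints 4 rose and 1 fell: the TGF-beta target Ccn2 by 0.68 (adjusted p 0.014), Eng by 0.61 (adjusted p 0.0706), the SMAD co-repressor Skil by 0.50 (adjusted p 0.0826), Tgfb1 by 0.40 (adjusted p 0.0237), and the co-receptor Tgfbr3 by −0.25 (adjusted p 0.0258). In relative 5′ UTR translation 1 of 19 rose, Tgfb1 by 0.64 (adjusted p 0.0798).

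Of 25 other matrix genes, 3 rose and 1 fell in RNA: Aspn (asporin, a small leucine-rich proteoglycan) by 1.91 (adjusted p 0.0322), Mmp11 by 0.57 (adjusted p 0.00791), Col4a5 by 0.32 (adjusted p 0.0699), and Ecm1 by −0.87 (adjusted p 0.0217). In footprints 7 rose and 2 fell, the largest being Aspn by 1.94 (adjusted p 0.0216), Ecm1 by −0.95 (adjusted p 0.003), the small leucine-rich proteoglycan Ogn by 0.72 (adjusted p 0.0074), Mmp11 by 0.62 (adjusted p 0.00426) and Prelp by 0.60 (adjusted p 0.0726). In relative 5′ UTR translation 1 of 16 rose, Ecm1 by 0.47 (adjusted p 0.0688). No gene of the 3 lists passed in TE.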

How the data were processed

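RPF-seq and RNA-seq libraries were made from 11 lysates of NIH3T3 cells (22 libraries). Per the methods and the submitters' processing notes, the authors trimmed reads (Cutadapt), removed contaminating RNA and aligned to GRCm38 (mm10) with Bowtie2 2.2.1 and TopHat2 2.0.11, assembled transcripts with Cufflinks 2.2.1, assigned footprints by their A-site and RNA reads by their 5′ end, counted a read that fitted several features towards the CDS first, and dropped genes with few reads and mitochondrial genes. The deposited values are RPKM per gene for CDS and 5′ UTR, on library sizes the authors scaled by the upper quartile (edgeR), separately for RPF-seq and RNA-seq, so a shift shared by most genes cannot be seen in RNA or footprints.

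Here RPKM were log2 transformed with a pseudocount of 0.1, so differences of low genes such as Eln are understated. Tests were limma 3.58.1 (lmFit, eBayes with trend) in R 4.3.3, 6 knockdown against 5 control lysates, or shRNA2 against shRNA1 (3 each) in a fit of 4 groups, with Benjamini-Hochberg adjustment over all genes and a false discovery rate of 0.1, the threshold of the study's methods. Tables and plots used Python 3.11.15, pandas 2.3.3, scipy 1.17.1 and matplotlib 3.10.9. Whole reads were recovered from the RPKM steps (231352 of 231352 CDS and 228800 of 228800 5′ UTR values within 0.001 of a whole number), which gave the depths and the 5′ UTR read minimum of 20. A precision-weighted fit (voom) of the recovered reads called 5 members in RNA (3.7% of all genes) and 11 in footprints (11.0%) in the knockdown. Between the shRNAs it called 5 (2.48%) and 16 (9.79%). Scripts were tested on simulated data with 200 changed genes.

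Symbols were given to 10505 of 10516 identifiers with GENCODE vM21, whose 5′ UTR length was that used by the authors in 2066 of 2668 genes with a single transcript and in the 4 collagens shown, but not in Dcn. The length also differed in other members, among them Lamb1, Nid1, Fn1 and Fbn1 (2390 nt annotated, 233 nt recovered from the authors' values). uORFs began with AUG and were at least 9 nt long, stop codon included. Members, role groups and pathway lists were chosen with earlier results of these data known. Lysate values are given for members past the threshold (the 6 largest in each direction where over 12 passed), the 3 highest and 3 lowest differences of each comparison and the 5 members with the most RNA, and pathway genes are named if past the threshold, at most 5 per list. Alternatives were another pseudocount, a filter on low values, centred libraries, voom, either Denr shRNA or scramble alone, the replicate number as a block, and leaving out each lysate in turn.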

Additional observations from a re-analysis of the deposited data

Results flagged for a closer look

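In 70 groups of values of the members described (6 knockdown or 5 control lysates each, on the log2 scale), 6 held 1 lysate whose distance to its nearest neighbour was above the 95% limit of Dixon's test for an outlier, and chance flags about 1 in 20 groups. Denr shRNA1 replicate 1 was the lysate in 5 of the 6. In log2(RPKM + 0.1) of RNA, it was high for Col4a1 (6.73, the other knockdown lysates 6.39 to 6.52), low for Col11a1 (2.09, the others 2.54 to 2.67) and low for Plod2 (3.57, the others 4.36 to 4.55). Its Plod2 log2 TE was high (1.04, the others 0.12 to 0.27), from the same RNA value. Its relative 5′ UTR translation of Fbn1 was low (−0.21, the others 0.27 to 0.51). In CDS footprints, scramble replicate 3 was high for Col8a1 (4.94, the other controls 4.77 to 4.79). Without shRNA1 replicate 1, 5 members passed in RNA (4.9% of all genes tested), 10 in CDS footprints (8.12%) and 6 in relative 5′ UTR translation (11.2%) in the knockdown. Between the shRNAs, 4 passed in RNA (2.33%) and 12 in footprints (6.42%) without this lysate. No cause was tested.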

How the results depend on the processing

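Counts of members past the threshold moved by more than 1.5 times as follows. The share of all genes tested that passed in the same setting is given in brackets. In the knockdown, RNA (5, 3.55%) gave 16 with scramble alone as control (8.94%) and 3 to 7 when 1 lysate was left out (1.32% to 6.98%). CDS footprints (10, 10.0%) gave 16 with the replicate number as a block (18.4%), 23 with scramble alone (25.2%) and 6 to 14 with 1 lysate left out (4.6% to 18.5%). Relative 5′ UTR translation (9, 18.0%) gave 0 with centred libraries (0.0773%), 0 with shRNA1 alone (0.0966%), 0 with shRNA2 alone (0.174%) and 2 with scramble alone (9.89%). It gave 1 with a filter on 5′ UTR RPKM of at least 1 (1.69%), 14 without division by the CDS (6 of them shared, 23.1%) and 0 over 5′ UTR RNA (0.0773%). With the replicate block it gave 18 (46.7%), and with 1 lysate left out 0 to 12 (0.734% to 34.3%). Between the shRNAs, RNA (5, 2.06%) gave 12 with the replicate block (9.18%), 2 with the 6 Denr lysates alone (0.884%) and 2 to 5 with 1 lysate left out (0.58% to 2.33%). There, CDS footprints (15, 9.69%) gave 23 with the replicate block (17.2%) and 9 to 12 with 1 lysate left out (5.33% to 6.47%). Members passing in TE, or between the shRNAs in relative 5′ UTR translation, were 0 in every setting run. Of all genes, 0.00951% to 0.685% passed in knockdown TE. Between the shRNAs, 0.0% passed in TE and at most 0.0193% in relative 5′ UTR translation. Centring removes the shared rise and some settings hold fewer lysates, but the cause of the moved counts was not tested.

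Deviations of same-numbered lysates correlated above 0.1 in 10 of 15 pairs for RNA, 13 for footprints, 10 for TE and 11 for relative 5′ UTR translation, against 5, 4, 4 and 5 of 30 other pairs (mean r 0.33, 0.18, 0.23 and 0.21 against −0.16, −0.089, −0.11 and −0.10). The deviations were taken from the mean of each shRNA and cancel out within it. The negative means of the other pairs thus largely follow from the positive ones and are no separate comparison. Not every same-numbered pair correlated above 0.1, and no source says that a number marks a shared day or batch. The counts with the replicate block are therefore given in this section alone. The block is also among the alternatives counted for single genes in the results above. Whether the numbers mark a shared step was not tested. As a hint from the data and not from the design, 7 of 11 lysates correlated best with a lysate of their own number in RNA, and 9 of 11 did in footprints, TE and relative 5′ UTR translation.

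Of the single-gene differences over all settings, 1006 kept direction and side of the threshold, 14 newly passed, 172 no longer passed and 20 changed sign. All of these 20 were differences of genes that had not passed, except Nid1. Knockdown TE of Plod2 was −0.0088 with shRNA2 alone and ranged from −0.037 (without shRNA1 replicate 1) to 0.20 with 1 lysate left out. Knockdown relative 5′ UTR translation was −0.29 for Nid1 without division by the CDS. For Dcn it was 0.18 with shRNA1 alone, 0.0017 without shRNA2 replicate 1, 0.029 without scramble replicate 3, 0.28 without division and 0.065 over 5′ UTR RNA. For Col1a1 it was 0.029 with shRNA2 alone, 0.059 without shRNA1 replicate 1, 0.0065 without shRNA2 replicate 1, 0.11 and 0.19 without scramble replicate 2 or 3, and 0.25 without division. Between the shRNAs it was −0.076 for Col1a1 without shRNA1 replicate 1, −0.033 without shRNA2 replicate 3, −0.12 without division and −0.21 over 5′ UTR RNA, −0.065 (without shRNA1 replicate 1) to 0.30 for Fbn1 with 1 lysate left out, and −0.25 for Col3a1 without division.

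Depth limits Eln, Col18a1, Dpt, Mgp and Col12a1 most in RNA (lowest library 9, 17, 25, 42 and 45 reads), and the 11 members under the 5′ UTR read minimum could not be tested there. All knockdown values rest on 2 shRNAs and on controls that differed from each other in many matrix genes.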

Other observations

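Between the 2 Denr shRNAs, the pathway lists held single genes that differed, beside 1.13% of all genes higher and 0.932% lower in RNA and 5.68% and 4.01% in CDS footprints. Of 24 genes for procollagen folding, secretion and trimming, 1 was higher with shRNA2 in RNA, Tmem38b, an endoplasmic reticulum potassium channel needed for collagen processing, by 1.17 (adjusted p 0.00416). In CDS footprints 2 were higher and 1 was lower, Tmem38b by 0.91 (adjusted p 0.0132), P4ha3 by 0.27 (adjusted p 0.0797) and the procollagen peptidase Adamts14 by −0.69 (adjusted p 0.0298), by limma across all genes. Of 25 genes for TGF-beta and CCN signals, 1 was lower in RNA, Ccn4 by −0.36 (adjusted p 0.0966). In footprints 2 were higher and 2 lower: Ccn5 by 0.78 (adjusted p 0.00589), Ltbp1, which tethers latent TGF-beta to the matrix, by 0.48 (adjusted p 0.0306), the protease Furin by −0.47 (adjusted p 0.00336) and Ccn4 by −0.38 (adjusted p 0.0306).

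Of 25 other matrix genes, 2 were higher and 2 lower with shRNA2 in RNA: the protease Adamts12 by 0.91 (adjusted p 0.00225), Sparcl1, a relative of Sparc, by 0.56 (adjusted p 0.0408), the protease Adamts1 by −0.71 (adjusted p 0.0233) and Efemp1, a fibulin, by −0.44 (adjusted p 0.0236). In footprints 5 were higher and 4 lower, the largest being Adamts12 by 0.83 (adjusted p 0.000274), Adamts1 by −0.79 (adjusted p 0.00134), the hyaluronan synthase Has2 by 0.69 (adjusted p 0.000488), Ecm1 by 0.53 (adjusted p 0.00413) and the aggrecanase Adamts5 by −0.52 (adjusted p 0.00269). No gene of these lists passed in TE or in relative 5′ UTR translation.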
